A study of Mus musculus with 4 samples.

Results

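Cxcl9, Cxcl10, Cxcl11 and Cxcl16 are the CXC chemokine genes whose products recruit lymphocytes, and they are described here across 4 arrays of peritoneal macrophages. They were taken by name, as all probe sets whose only gene symbol in the platform annotation is one of these 4 genes, which gave 7 of 45037 probe sets after removal of the controls, or 4 of 18193 genes. Wildtype (WT) mice were +/+:Setdb1 fl/fl and KO mice were LysM Cre/+:Setdb1 fl/fl, so that both carried the floxed Setdb1 allele and the KO mice also carried Cre, which the LysM promoter drives in macrophages and other myeloid cells. The strain is given as C57BL6/J, and the age and the number of mice behind an array are not given in the sources used here. Macrophages drawn into the peritoneal cavity by thioglycollate received vehicle or lipid A, the active part of lipopolysaccharide, for 4 h. The dose is 10 ng/ml in the series design and 10 µg/ml in the sample labels. Each of the 4 conditions has 1 Affymetrix mouse expression array, so no difference below has a replicate check and no p-value is given.

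CXCL9, CXCL10 and CXCL11 bind the receptor CXCR3 on activated T cells and natural killer (NK) cells. Their genes are classical targets of interferons, and Cxcl10 is also switched on through NF-κB when macrophages sense lipopolysaccharide. CXCL16 is different in form, being made as a membrane protein that takes up oxidised lipoproteins and carries a chemokine domain on a stalk. The proteases ADAM10 and ADAM17 can release that domain, which then attracts cells that bear CXCR6. In the RefSeq annotation of the C57BL/6J genome (GRCm38.p6), Cxcl9, Cxcl10 and Cxcl16 are protein-coding genes, whereas Cxcl11 is listed as a transcribed pseudogene. Cxcl9, Cxcl10 and Cxcl11 are close neighbours on chromosome 5, and Cxcl16 is on chromosome 11.

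RefSeq promoter sequences (GRCm38.p6, from 250 bases before to 50 bases after the start of the gene) were at hand for 2 of 4 genes. They are shown because Cxcl10 and Cxcl9 were background without stimulation and above it with lipid A in both genotypes. For Cxcl9 this held by its brighter probe set alone and at a small margin. Capitals mark matches, on either strand, to the core of the interferon-stimulated response element (ISRE, GAAANNGAAA), the gamma-interferon-activated site (GAS, TTCNNNGAA), the AP-1 site (TGANTCA) and the NF-κB consensus.
Cxcl10, chr5:92348840-92349139, minus strand: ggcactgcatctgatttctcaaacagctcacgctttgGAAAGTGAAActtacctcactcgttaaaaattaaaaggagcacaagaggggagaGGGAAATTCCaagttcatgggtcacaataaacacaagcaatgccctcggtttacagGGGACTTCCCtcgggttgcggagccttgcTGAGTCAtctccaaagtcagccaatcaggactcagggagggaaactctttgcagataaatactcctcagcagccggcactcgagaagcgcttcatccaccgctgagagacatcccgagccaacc
Cxcl9, chr5:92328030-92328329, minus strand: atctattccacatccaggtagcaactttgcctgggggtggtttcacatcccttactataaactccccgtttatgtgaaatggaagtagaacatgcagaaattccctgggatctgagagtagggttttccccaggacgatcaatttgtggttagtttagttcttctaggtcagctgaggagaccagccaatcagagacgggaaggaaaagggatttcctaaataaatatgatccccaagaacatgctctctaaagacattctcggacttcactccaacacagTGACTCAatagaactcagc

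The Cxcl10 window held the ISRE core from 213 to 204 bases before the start, NF-κB matches from 159 to 150 and from 103 to 94 bases before it, and an AP-1 match from 74 to 68 bases before it. The Cxcl9 window held an AP-1 match after the start and none of the other motifs as spelled here, and neither window held the GAS letters. Of 32851 promoter windows of this length, 3.44% held the ISRE core, 8.30% GAS, 7.81% the AP-1 letters and 4.51% the NF-κB consensus. A match is a string of letters and was not tested as a binding site.

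All values are linear signals of single probe sets, and 4 values in a row belong to the WT arrays (vehicle, then lipid A) followed by the KO arrays (vehicle, then lipid A). The median signal lay between 65.1 and 84.2 on the 4 arrays, and a signal under the median of its array was read as background. A fold against such a signal is a lower bound, computed against that median and written "at least". Macrophage identity was carried by 9 of 10 listed macrophage genes above the median on every array, among them Lyz2, Cd68 and Csf1r. Cd163 was below it on all 4. Over all genes, 9047 of 18193 were at or above the median on every array. Setdb1 gave 589, 521, 346 and 386 by 1 of its 3 probe sets, the others being background. Whether this probe set reads the floxed exons is unknown here, so it does not check the genotype.

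Cxcl10 was the member with the largest lipid A difference in both genotypes. Its 1 probe set (1418930_at) gave 15.9 with vehicle and 18980 with lipid A in WT, and 5.40 and 12271 in KO. Both vehicle signals were background and both lipid A signals were far above it. Lipid A over vehicle was at least 291-fold in WT, rank 1 of 11793 genes, and at least 146-fold in KO, rank 12 of 12041 genes. The ranks compare bounds and measured folds together and depend on the floor. Because the vehicle arrays give only a limit, these bounds do not say in which genotype the response was larger. Under lipid A, where both arrays measured it, Cxcl10 was 1.55-fold lower in KO, a log2 difference of -0.63.

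Cxcl9 was also high with lipid A alone, at a much smaller margin over background. Its brighter probe set (1418652_at) gave 2.90 with vehicle and 150 with lipid A in WT, and 3.21 and 232 in KO. That is at least 2.30-fold in WT and at least 2.75-fold in KO. Between the lipid A arrays Cxcl9 was 1.55-fold higher in KO, so that Cxcl9 and Cxcl10 differed between the genotypes by the same size in opposite directions. The other Cxcl9 probe set (1456907_at) was background on every array, at 39.8, 40.5, 8.24 and 9.39 in the same order, and did not show the lipid A difference. With the mean over both probe sets Cxcl9 no longer passed 2-fold in WT (log2 difference 0.26), and its difference between the genotypes under lipid A turned to -0.039. Both values are bounds set by the floor. Under this mean Cxcl9 had no value in KO, and with the floor at the 60th percentile it passed 2-fold in neither genotype, at log2 differences of 0.52 in WT and 0.85 in KO.

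Cxcl11 was not measured above background by the probe set that stands for the gene (1419698_at), whose signals were 49.9 and 62.1 in WT and 67.6 and 70.6 in KO. The other probe set (1419697_at) gave 24.0, 118, 28.1 and 25.5 in this order. It passed the median on the WT lipid A array alone, where it was at least 1.82-fold over WT vehicle and at least 1.56-fold over KO lipid A. The 2 probe sets thus differ on whether lipid A had an effect in WT, and neither reached the median in KO.

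Cxcl16 was the member that the genotype separated without stimulation. Its probe sets were above the median on all 4 arrays. The brighter one (1418718_at) gave 2583 with vehicle and 4249 with lipid A in WT, and 360 and 5110 in KO. The other (1449195_s_at) gave 2303, 3463, 440 and 3357 in the same order. By both, the KO vehicle array stood well below the other arrays, and the 2 lipid A arrays lay close together.

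**Figure D1:**
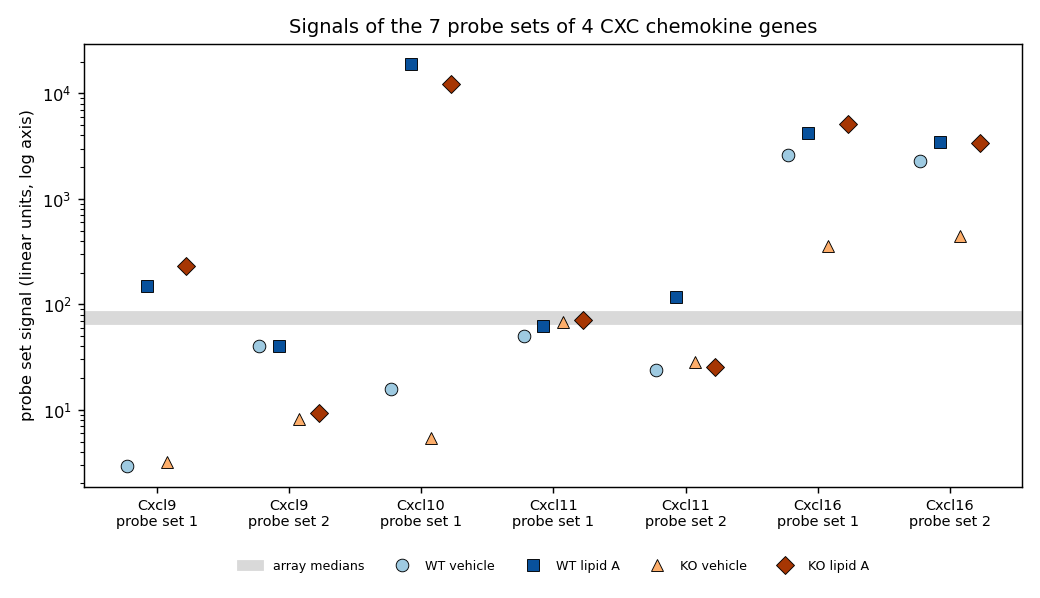
Signal of each of the 7 probe sets (log axis, linear units) on the 4 arrays, with 1 marker per array and probe sets numbered by mean signal within a gene. The grey band spans the array medians, 65.1 to 84.2, and Cxcl16 is the gene whose KO vehicle signals, 360 and 440, are the low ones while its other arrays lie between 2303 and 5110.

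Under vehicle Cxcl16 was 7.17-fold lower in KO by the brighter probe set and 5.23-fold lower by the other. Among 11516 genes with a value in this comparison it was at rank 16 from the lowest. In WT, Cxcl16 was 1.65-fold higher with lipid A than with vehicle, under the 2-fold threshold. In KO it was 14.2-fold higher, or 7.62-fold by the other probe set. Under lipid A the genotypes differed by 1.20-fold, higher in KO by the brighter probe set, and by 1.03-fold, lower in KO by the other. The lipid A response was larger in KO than in WT by 3.11 on the log2 scale (8.62-fold), or by 2.34 by the other probe set, beside a median of -0.085 over the 9047 genes measured on all 4 arrays, of which 0.951% exceeded 3-fold in this direction. Between probe sets of a gene this quantity had an SD of 0.50 over 3916 genes, a technical spread that leaves out differences between mice.

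In RNA of a whole culture, fewer cells of a type and less RNA per cell cannot be told apart. Beside the low Cxcl16 signal of KO vehicle, the summed signal of the 10 macrophage genes was 161714 there against 190271 in WT vehicle. Of the 9 detected, 6 were lower in KO vehicle and 3 higher, with a median log2 difference of -0.19. Adgre1, which encodes F4/80, was 2.73-fold lower, while Fcgr1 was 1.94-fold higher. The 6 neutrophil genes with a probe set summed to 1151 in KO vehicle and 5436 in WT vehicle, mostly from Mmp8, at 399 and 3599, and S100a8, at 569 and 1727. Ltf went the other way, at 99.7 and 11.3, and S100a9 and Cxcr2 were background on all arrays. The 7 B cell genes with a probe set summed to 3953 and 556, mostly from Ms4a1 and Cd79b in KO. Here Fcer2a went the other way, at 2.93 and 104, and Cr2 was background on both vehicle arrays. The 9 mesothelium and fibroblast genes summed to 950.2 and 1770, with Dcn 4.02-fold lower in KO vehicle. Of the 6 detected, 4 were lower in KO vehicle and 2 higher. The higher ones were Msln, by at least 1.83-fold, and Col1a1, by 1.33-fold. Upk3b, Wt1 and Krt19 were background on all arrays. The 7 dendritic cell genes with a probe set summed to 4721 and 3864, mostly from Itgax, and the 4 detected were all higher in KO vehicle. Under lipid A, where Cxcl16 differed by 1.20-fold, the KO and WT sums were 1001.0 and 4272 for neutrophils and 4221 and 482 for B cells. They were 753 and 1501 for mesothelium and fibroblasts, and 3725 and 4101 for dendritic cells. Their part in the Cxcl16 difference was not tested.

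Counted over the members, 2 of the 3 detected passed 2-fold upwards after lipid A in WT (Cxcl9 and Cxcl10) and 3 of 3 in KO (Cxcl9, Cxcl10 and Cxcl16), with 0 lower in either. A gene was detected when the brighter of the compared signals reached the median of its array. Of all detected genes, 5.71% were over 2-fold higher and 3.78% lower in WT, and 5.65% were higher and 9.79% lower in KO. Between KO and WT under lipid A, 0 of the 3 detected members passed the 3-fold threshold in either direction, against 1.28% of all genes higher and 0.657% lower. Under vehicle, Cxcl16 was the 1 detected member and was over 3-fold lower, against 1.21% of all genes higher and 0.625% lower. The members were chosen with earlier results of these data known, so these counts are not a test.

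**Figure D2:**
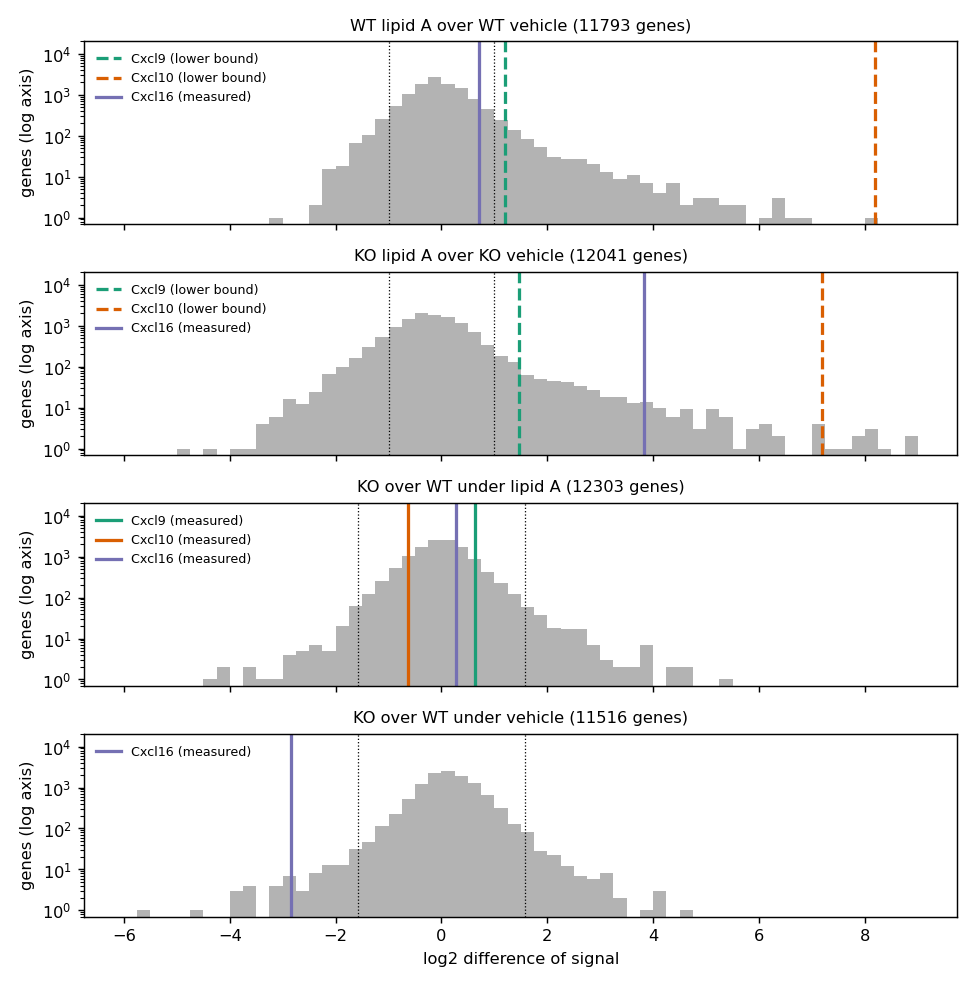
Histograms of the log2 difference of signal over all genes with a value in each of the 4 comparisons (number of genes on a log axis), with vertical lines for the members, dashed where the value is a lower bound, and dotted lines at the 2-fold or 3-fold threshold. Cxcl10 lies at the far right under lipid A in both genotypes, at 8.19 and 7.19, and Cxcl16 lies in the left tail between KO and WT under vehicle, at -2.84.

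For the receptors, the arrays gave signals near background. Cxcr3, the receptor of CXCL9, CXCL10 and CXCL11, gave 87.4 and 64.3 in WT and 139 and 166 in KO. It was 1.59-fold higher in KO under vehicle and at least 2.22-fold higher under lipid A. Of 9 T and NK cell genes with a probe set, 0 (WT) and 3 (KO) were at or above the median on the vehicle arrays. On the lipid A arrays 2 (WT) and 8 (KO) were, while Ncr1 was background on all arrays. By definition, 50% of all probe sets reach the median of an array. The summed signals of the T and NK cell genes were 221 and 803 under vehicle and 441 and 944 under lipid A, WT before KO. The first of these sums is background throughout. The part of such cells in the Cxcr3 signal was not tested. Cxcr6, the receptor of CXCL16, gave 42.1, 48.7, 90.3 and 97.2 in the same order of arrays. A further Cxcr6 probe set gave 74.7, 54.9, 64.5 and 21.7 and passed the median in WT vehicle alone. Ackr3, an atypical receptor that binds CXCL11, was background on all 4 arrays. Both sheddases of CXCL16 were measured on every array. Adam10 gave 7214, 5276, 6013 and 3373, and Adam17 gave 9268, 11964, 6173 and 9912. Neither passed a threshold in any of the 4 comparisons by the probe set used, but a further Adam17 probe set was higher with lipid A in KO by a log2 difference of 1.09, past the 2-fold threshold. Dpp4, a protease that trims CXCL10, was above the median in KO vehicle alone, at 94.7.

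The genes that carry interferon signals to these chemokines were present, while the interferons themselves were at or near background. Ifng, which encodes interferon gamma, was below the median on every array. Ifnb1, which encodes interferon beta, gave 6.88 and 65.9 in WT and 10.3 and 108 in KO, and passed the median in KO lipid A alone. Of 11 detected genes of the type I interferon route, 4 passed 2-fold upwards with lipid A in WT (Irf7, Stat2, Irf9 and Ikbke) and 1 was lower (Ticam1, which encodes the adaptor TRIF), and 5 of 12 were higher in KO. Irf1, a transcription factor that acts on interferon gamma targets, was 11.4-fold higher in stimulated WT macrophages and 13.0-fold higher in stimulated KO macrophages.

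The antiviral interferon-stimulated genes were higher with lipid A, like Cxcl10. All 17 detected genes of this list passed 2-fold in both genotypes, with median log2 differences of 4.10 and 4.30. The median over all detected genes was -0.056 and -0.20, and the list was chosen with earlier results of these data known. Under lipid A the list had a median of -0.70 between KO and WT, with 15 of 17 genes lower in KO and 0 past 3-fold, and the Cxcl10 difference of -0.63 lay near that median while the Cxcl9 difference of 0.63 lay above all of the list. Of 14 detected genes of the interferon gamma route and its targets, 10 were over 2-fold higher with lipid A in each genotype, and their median between KO and WT under lipid A was -0.15. Igtp, Iigp1 and Gbp3, which encode interferon-inducible GTPases, were 20.7-fold, at least 17.9-fold and 15.0-fold higher in WT after lipid A. Of 9 detected NF-κB genes, 7 were over 2-fold higher with lipid A in each genotype, and their median between KO and WT under lipid A was 0.45. Rel and Nfkb2, which encode NF-κB subunits, were 2.30-fold and 2.57-fold higher in KO lipid A.

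Without stimulation several of the listed genes were low in KO together with Cxcl16. Of 52 pathway genes at or above the median on all 4 arrays, 38 were lower in KO vehicle than in WT vehicle, 8 of them over 3-fold, and 2 of them by more than Cxcl16. Of all 9047 genes measured on the 4 arrays, 42.7% were lower in KO vehicle and 0.696% over 3-fold lower. The lists were chosen with earlier results of these data known, so the counts describe them and are not a test against that share. The 2 genes lower by more than Cxcl16 were Cxcl3, which recruits neutrophils, with 24.2-fold, and Gbp2, an interferon-inducible GTPase, with 8.58-fold. Cxcl2, also a neutrophil chemokine, was 5.95-fold lower, Ccl5, a T cell chemokine, 5.64-fold, and Zbp1, an antiviral sensor of nucleic acids, 4.57-fold. A further Gbp2 probe set gave a log2 difference of -2.52 where the one used here gave -3.10, but a further Zbp1 probe set gave -0.20 where the one used here gave -2.19. The array medians themselves differed by 0.37 on the log2 scale, being higher in KO vehicle, and the median difference over all detected genes was 0.12.

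Of the same 52 genes, 6 had a lipid A response over 3-fold larger in KO than in WT, and 0 had one over 3-fold smaller. These were Cxcl3 with 40.4-fold, Ccl5 with 10.8-fold, Cxcl2 with 9.91-fold, Gbp2 with 9.21-fold, Cxcl1 with 7.51-fold and Zbp1 with 3.45-fold, beside 8.62-fold for Cxcl16. Over all 9047 genes measured on the 4 arrays, 0.951% had a response over 3-fold larger in KO and 1.33% one over 3-fold smaller. Here too the lists were chosen with earlier results known, so the counts are not a test against these shares. For Zbp1 the further probe set turned the direction, with a KO response smaller than the WT response by a log2 difference of -0.22. For Cxcl3 the KO vehicle signal of 86.5 lay just above the median of its array, 84.2, so its fold rests on a signal next to background. They did not reach alike levels relative to WT under lipid A. Gbp2, Zbp1 and Cxcl16 had log2 differences of 0.10, -0.41 and 0.27 between the lipid A arrays, whereas Cxcl1, Ccl5, Cxcl3 and Cxcl2 had 2.21, 0.93, 0.74 and 0.74. Responses and genotype differences share arrays, so they are given side by side and not as separate evidence.

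**Figure D3:**
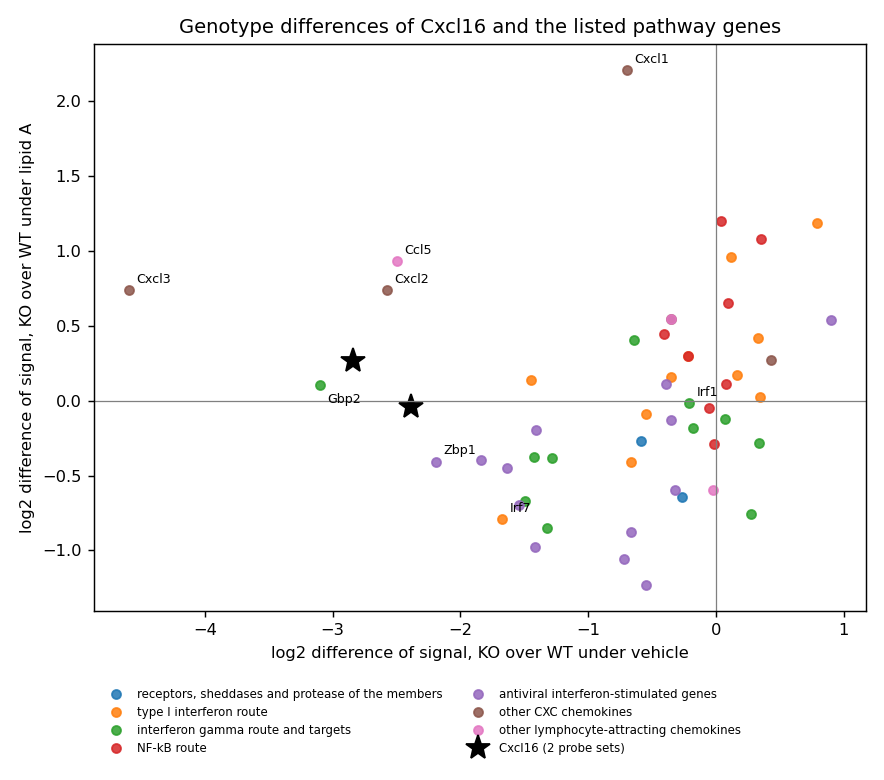
KO over WT log2 difference of signal under vehicle (horizontal axis) and under lipid A (vertical axis) for the 52 pathway genes at or above the median on all 4 arrays, coloured by list, with stars for the 2 probe sets of Cxcl16. Cxcl16 lies far to the left, at -2.84 and -2.39, and near 0 on the vertical axis, at 0.27 and -0.045, close to Gbp2 and below Cxcl3, Cxcl2 and Ccl5.

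Other chemokines that attract lymphocytes followed neither pattern as a group. Of 8 detected genes of that list, Ccl5 was the 1 gene past 2-fold in WT, at 20.6-fold higher with lipid A, and in KO Ccl5 and Ccl22 were higher, at 222-fold and at least 4.65-fold of 7 detected. Ccl22, which attracts T cells through CCR4, gave 9.44 and 392 on the lipid A arrays of WT and KO, at least 5.24-fold higher in KO. Cxcl13, the B cell attractant, lay between 85.7 and 126 on the 4 arrays.

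Values of genes next to the chemokine genes are given beside theirs. They were taken by their order in RefSeq after the chemokine values were known. Art3, which lies between Cxcl9 and Cxcl10, was background on all arrays, while Sdad1 next to Cxcl9 was 1.57-fold higher after lipid A in WT and 1.97-fold in KO, and Nup54 next to Cxcl11 was 1.13-fold and 1.96-fold higher. Beside Cxcl16, Med11 and Arrb2 had log2 differences of 0.13 and 0.14 between KO and WT under vehicle, where Cxcl16 had -2.84. Zmynd15, the neighbour on the other side, gave 140.5, 257, 59.9 and 150, and was at least 1.67-fold lower in KO vehicle. The lipid A difference in WT did not set Cxcl16 apart, being 1.83-fold for Zmynd15 and 2.09-fold for Alox12e against 1.65-fold for Cxcl16. In KO it did, since Cxcl16 was 14.2-fold higher with lipid A. There Zmynd15 was at least 1.78-fold higher, Med11 1.24-fold higher and Alox12e 1.63-fold lower.

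The genes with the most similar pattern were found by the Euclidean distance between log2 signals of the 4 arrays, with background raised to the array median and each gene centred on its mean, over 13567 genes above the median on at least 1 array. For Cxcl10 they were Ifit1 at a distance of 1.40, Ifit2 at 1.84, Ptgs2 at 1.90, Mx1 at 1.97 and Tnf at 1.98. Of these, Ifit1, Ifit2 and Mx1 are antiviral interferon-stimulated genes, Ptgs2 encodes cyclooxygenase-2 and Tnf a proinflammatory cytokine. Between the lipid A arrays Ifit1, Ifit2 and Mx1 were lower in KO, like Cxcl10. Ptgs2 and Tnf went the other way, at 13641 and 22302 in WT against 47720 and 49032 in KO. For Cxcl16 the nearest genes were Acp5, which encodes an acid phosphatase, at 0.50, the cystine transporter gene Slc7a11 at 0.56 and Rassf4 at 0.62. Next came Clec4e, which encodes the lectin receptor Mincle, at 0.79, and Ddhd1 at 0.96. Clec4e gave 48726 and 84689 in WT and 3573 and 78521 in KO. For Cxcl9, whose vehicle values are the floor itself, they were Slc7a1, Slamf1, Bcl6b, C130026I21Rik and Top1, at distances from 0.041 to 0.12.

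**Figure D4:**
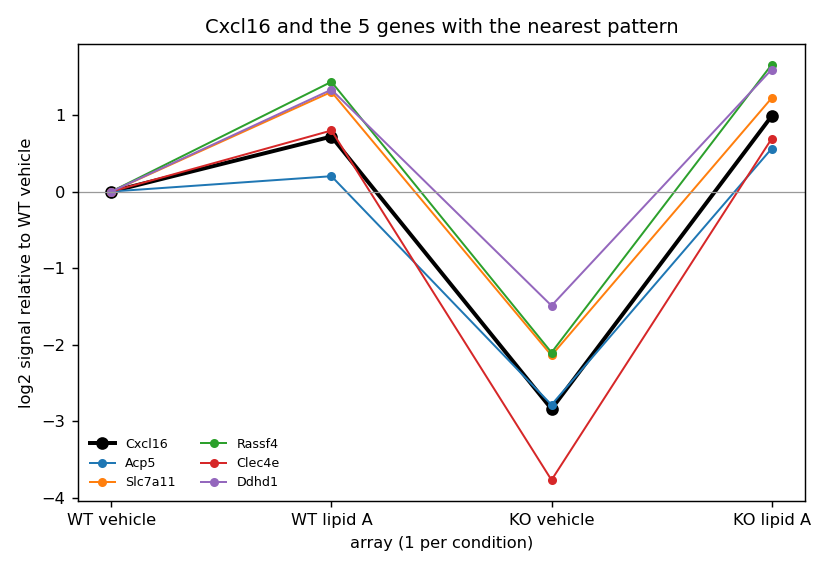
Log2 signal relative to WT vehicle on the 4 arrays, 1 per condition, for Cxcl16 (black) and the 5 genes with the nearest pattern. All 6 lines dip in KO vehicle, where Cxcl16 lies at -2.84, and lie at or above WT vehicle on both lipid A arrays.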

How the data were processed

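The authors deposited 1 table with a value per probe set and array. The deposited intensity values are linear probe set signals that the authors made from scanned, hybridised arrays, with software that the sources used here do not name. With 2% trimmed from both ends, the mean was 500.004 for each of the 4 arrays, from which scaling of whole arrays to a common mean was inferred. The number of arrays, 1 per condition, limits the precision.

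Of 45101 probe sets, 64 controls were left out. By the platform annotation 34945 of the rest have 1 gene symbol, 932 several and 9160 none, and 34741 matched a RefSeq gene. Each gene takes its brightest probe set by mean log2 signal. A signal under the median of its array was set to that median, and thresholds were 2-fold for lipid A and 3-fold between genotypes, after the fold limits of the methods. The members and lists were chosen with earlier results of these data known. Named genes are the members, up to 5 genes of a list with the largest difference, receptors, proteases, interferon genes and the 5 nearest patterns. Further genes were named after their values were seen. Alternatives were other scalings, floors, fold limits and probe sets, and the ratio of signals as measured. The calling step was tested on simulated data. Python 3.11.15, numpy 2.4.6, pandas 2.3.3, SciPy 1.17.1 and matplotlib 3.10.9 were used.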

Additional observations from a re-analysis of the deposited data

Results flagged for a closer look

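Cxcl16 was lower in KO than in WT under vehicle, by -2.84 on the log2 scale, and higher under lipid A, by 0.27, so that the sign turned between the treatments and the lipid A response was larger in KO by 3.11. The difference between the treatments was not tested, since each condition has 1 array. The lipid A value is smaller than the SD of 0.41 between probe sets of the same gene, and the other Cxcl16 probe set gave -0.045 there, so the opposite sign rests on 1 probe set, while both probe sets put Cxcl16 low in KO vehicle.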

How the results depend on the processing

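Of the recomputed differences of Cxcl9, Cxcl10 and Cxcl16, 63 moved by less than the SD between probe sets, 16 by more, and 2 reversed. Those under quantile normalization, under centring on bright probe sets and without probe sets of shared transcripts were all among the 63. Against signals as measured, with no floor, lipid A over vehicle became 10.22 for Cxcl10 and 5.69 for Cxcl9 in WT, and 11.15 and 6.17 in KO, on the log2 scale. With the floor at the 60th percentile these values were 7.51, 0.52, 6.58 and 0.85, and with the floor at the 40th percentile 8.74, 1.75, 7.68 and 1.95. The mean over the probe sets of a gene gave 0.26 for Cxcl9 in WT and reversed its KO over WT difference under lipid A to -0.039. Both are bounds set by the floor. By its other probe set, Cxcl16 gave 2.93 in KO, -2.39 between genotypes under vehicle, 2.34 for the difference of responses and a reversed -0.045 under lipid A. The number of members over 2-fold higher in WT was 1 with the floor at the 60th percentile, 1 with the mean over probe sets, 0 by second probe sets and 1 over 4-fold, and in KO it was 1 by second probe sets and 2 with the floor at the 60th percentile, with the mean over probe sets and over 4-fold. Over 1.5-fold, 1 member was higher and 1 lower in KO under lipid A. Second probe sets could not be had for Cxcl10, which has 1, and were background for Cxcl9. No paired analysis was possible because each condition has 1 array, and leaving out an array leaves no comparison. The moves under other floors follow from the floor itself, because the vehicle signals of Cxcl9 and Cxcl10 lie below it, and the cause of the differences between probe sets was not tested.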
